A study of Mus musculus with 201 samples.

Results

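The calcium/calmodulin-dependent protein kinases of the mouse dentate granule cell (DGC) were examined gene by gene in single whole cells and single nuclei. The 10 genes were listed by name as a family, with earlier results of these data known, and no measured value enters the list. They were *Camk2a*, *Camk2b*, *Camk2d* and *Camk2g*, the upstream kinases *Camkk1* and *Camkk2*, the type I kinases *Camk1*, *Camk1d* and *Camk1g*, and *Camk4*. All 10 were present in each of the 3 tables, out of 42983 gene symbols in any table and 42609 shared by all of them.

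When calcium enters a neuron it binds calmodulin, and the complex relieves the autoinhibition of these kinases. CaMKII is a ring-shaped holoenzyme built from alpha, beta, gamma and delta subunits, each encoded by a gene of its own. It is among the most abundant proteins of the postsynaptic density. The remaining kinases form a cascade, in which the kinase kinases CaMKK1 and CaMKK2 phosphorylate CaMKI in the cytoplasm and CaMKIV in the nucleus, and CaMKIV phosphorylates the transcription factor CREB. CaMKK2 also phosphorylates the energy sensor AMPK.

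Whole cells (WC) were GFP+ cells sorted from Prox1-GFP mice, which carry a fluorescent protein linked to the promoter of *Prox1*, a DGC transcription factor. These mice received saline or pentylenetetrazole (PTZ, 50 mg per kg), a GABA(A) receptor antagonist that causes seizures, and were killed 1 h later. Their age is not given in the sources used here. The cells were freed with the protease papain and amplified with Smart-seq2 at 10 µM template-switching oligo (TSO). Each treatment was a pool of 2 mice by the study's methods, although the series description names a mouse, and the sample names of each treatment carry a mark of their own, which begins with frz for saline alone. What the marks stand for is not given in the sources used here, and they and the treatment cannot be told apart. Nuclei of the new environment (NE) groups came from 1 female wild-type C57BL/6 mouse of 8 weeks that spent 15 min in an unfamiliar environment and was killed 1 h afterwards. They were released by Dounce homogenization, sorted by staining as Prox1+/Fos+ (FOS+) or Prox1+/Fos- (FOS−), and amplified with Smart-seq2 in 4 conditions, which combined 1 or 10 µM TSO with ERCC spike-ins diluted 1:200 or 1:2000. Home cage (HC) nuclei came from 1 undisturbed C57BL/6 mouse. They were stained, captured and amplified on the Fluidigm C1 instrument, and scored as NeuN+/Prox1+ from images of the capture sites. No label ties a cell to an animal, so each group counts as 1 sample and no test between groups was made. Differences are given by their size, and the intervals cover counting error between cells or reads only.

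The kept samples were 38 saline and 30 PTZ whole cells, 41 FOS− and 40 FOS+ nuclei and 23 HC nuclei, with median total counts of 975934, 1090750, 214421, 269061 and 165926. Each of the 7 granule cell markers checked, *Prox1* and *Rbfox3* among them, was found in every group. At least 2 of the 7 were detected in 38 of 38 saline cells, 29 of 30 PTZ cells, 41 of 41 FOS− nuclei, 39 of 40 FOS+ nuclei and 23 of 23 HC nuclei. As a check of the sort, *Arc* was detected in 77.5% of FOS+ and 2.44% of FOS− nuclei. The PTZ group held 4 cells with 10244 to 12220 detected genes, above the 7854 of the richest saline cell. The PTZ ratios of the members are given with and without them, and PTZ values of other genes with them only. A gene was called detected in a cell when its length-scaled transcript abundance (TPM) exceeded 1.

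By their annotated transcripts the members share few stretches of 50 bases with other genes. In GENCODE vM21 (GRCm38) the genes span *Camk2a* chr18:60925618-60988152, *Camk2b* chr11:5969644-6066362, *Camk2d* chr3:126596302-126846326, *Camk2g* chr14:20734875-20794088, *Camkk1* chr11:73019008-73042073, *Camkk2* chr5:122731170-122779409, *Camk1* chr6:113334124-113343984, *Camk1d* chr2:5293457-5714515, *Camk1g* chr1:193346346-193370298 and *Camk4* chr18:32934931-33191228. Of all stretches of 50 bases in their annotated transcripts, none was shared with another gene for *Camk2d*, *Camk2g*, *Camk1d*, *Camk1g*, *Camkk1* and *Camkk2*, and 2.22% at most, for *Camk1*. The shared bases of *Camk1* lie where its exons overlap 232 bases of *Ogg1*, a DNA repair gene on the opposite strand, and the libraries do not keep the strand. *Ogg1* was detected in 6 of 30 PTZ cells and 2 of 38 saline cells, and in none of the FOS+ or HC nuclei. *Camk4* overlaps 72 exonic bases of the antisense gene *2310026I22Rik*, which had no count in any kept cell.

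The CaMKII genes *Camk2a* and *Camk2b* had the highest mean TPM of the 10 members in all 5 groups. *Camk2a*, the alpha subunit, had a lowest, median and highest TPM of 0, 1048 and 2138 in saline cells and of 0, 756 and 1809 in PTZ cells. In the nuclei the same 3 values were 0, 568 and 1269 for FOS−, 0, 495 and 1798 for FOS+ and 0, 218 and 1163 for HC. The ranges of all groups overlapped widely. *Camk2a* was detected in 36 of 38 saline, 28 of 30 PTZ, 40 of 41 FOS−, 39 of 40 FOS+ and 19 of 23 HC samples, so the 4 HC nuclei without it made up the largest undetected share.

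*Camk2b*, the actin-binding beta subunit, was the member found most evenly. Its median TPM was 892 in saline cells (range 31.6 to 1699) and 814 in PTZ cells (64.2 to 1517), and no whole cell lacked it. In nuclei it ran from 0 to 1430 with a median of 335 for FOS−, from 0 to 2120 with a median of 421 for FOS+, and from 0 to 2387 with a median of 203 for HC. A single nucleus of each nuclear group lacked it. On the log2(TPM + 1) scale *Camk2b* averaged 9.55 ± 1.23 (SD over 38 cells) in saline cells and 9.30 ± 1.15 (SD over 30 cells) in PTZ cells, against 9.31 ± 2.60 and 8.61 ± 2.83 for *Camk2a*.

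*Camk2g*, the gamma subunit, was broad in whole cells and patchy in nuclei. It was detected in 92.1% of saline cells (exact 95% interval 78.6 to 98.3) and 90.0% of PTZ cells (73.5 to 97.9), at a median TPM of 136 and 116. Detection was 46.3% in FOS− (30.7 to 62.6), 45% in FOS+ (29.3 to 61.5) and 47.8% in HC nuclei (26.8 to 69.4), whose median TPM was 0.76, 0 and 0. These nuclear shares were lower than those of both whole-cell groups, whose median total counts were higher. How common such a gap is among all genes was not computed. When every cell was thinned to 50000 counts, the shares with any count left were 89.5% and 86.7% in saline and PTZ cells and 41.5%, 40% and 26.1% in the nuclei. Whole cells and nuclei also differ in mouse, strain and preparation, NE nuclei in read length and HC nuclei in the amplification instrument, so the part of each in this gap cannot be told apart.

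*Camk2d*, the delta subunit known best from heart muscle, was rare. It was detected in 1 of 38 saline cells (252 TPM), 2 of 30 PTZ cells (highest 3.60 TPM), 5 of 41 FOS− nuclei (highest 343 TPM), 14 of 40 FOS+ nuclei (highest 828 TPM) and 0 of 23 HC nuclei, where a count of 0 allows a share of up to 13% by 3 cells of the total and 14.8% by the exact interval. FOS+ nuclei were thus the group in which it was seen most often.

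**Figure D1:**
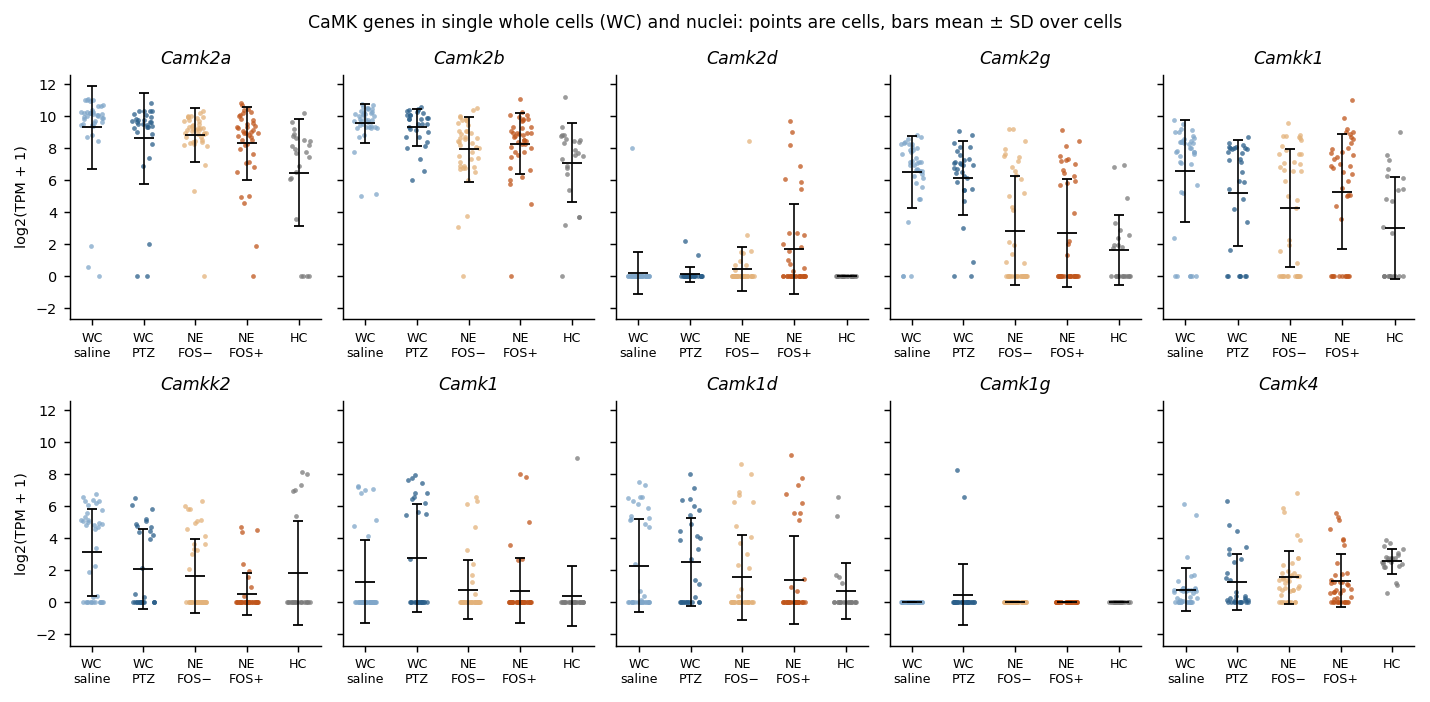
Level of each CaMK gene in each kept cell or nucleus, as log2(TPM + 1), for saline and PTZ whole cells (WC), FOS− and FOS+ nuclei of the new environment mouse (NE) and home cage (HC) nuclei; points are cells and the bars give the mean ± SD over cells. *Camk2a* and *Camk2b* have most cells at high levels, with some cells at or near 0 in most groups, *Camk2g*, *Camkk1*, *Camkk2*, *Camk1* and *Camk1d* split into cells at 0 and cells well above it, and *Camk1g* is at 0 in all but 2 PTZ cells.

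As TPM is scaled per transcript length, the 4 CaMKII genes can be set against each other within a cell. *Camk2a* supplied a median of 46.4% of the summed Camk2 TPM in saline cells (quartiles 37 and 56.5) and 44.5% in PTZ cells (32 and 50.4). The median was 54.1% in FOS− nuclei (40.2 and 75.9), 49.4% in FOS+ nuclei (24.7 and 66.6) and 40.7% in the 22 HC nuclei with any Camk2 TPM (18.3 and 55.5). *Camk2a* and *Camk2b* therefore contributed similar amounts, and which of them led differed from cell to cell. *Camk2a* was the largest of the 4 in 18 of 38 saline cells, 12 of 30 PTZ cells, 26 of 41 FOS− nuclei, 21 of 40 FOS+ nuclei and 8 of 22 HC nuclei. Neither gene stood above the other by more than 1 SD of their difference over cells in any group. *Camk2g* held 7.61% of the mean Camk2 TPM in saline cells, 8.20% in PTZ cells, 6.5% in FOS−, 5.09% in FOS+ and 2.10% in HC nuclei. The *Camk2d* share was highest in FOS+ nuclei at 4.09% and did not pass 0.792% in any other group. The summed Camk2 TPM had a median of 2223 in saline cells, 1765 in PTZ cells, 1089 in FOS−, 1010 in FOS+ and 548 in HC nuclei, and 1 HC nucleus had none.

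**Figure D2:**
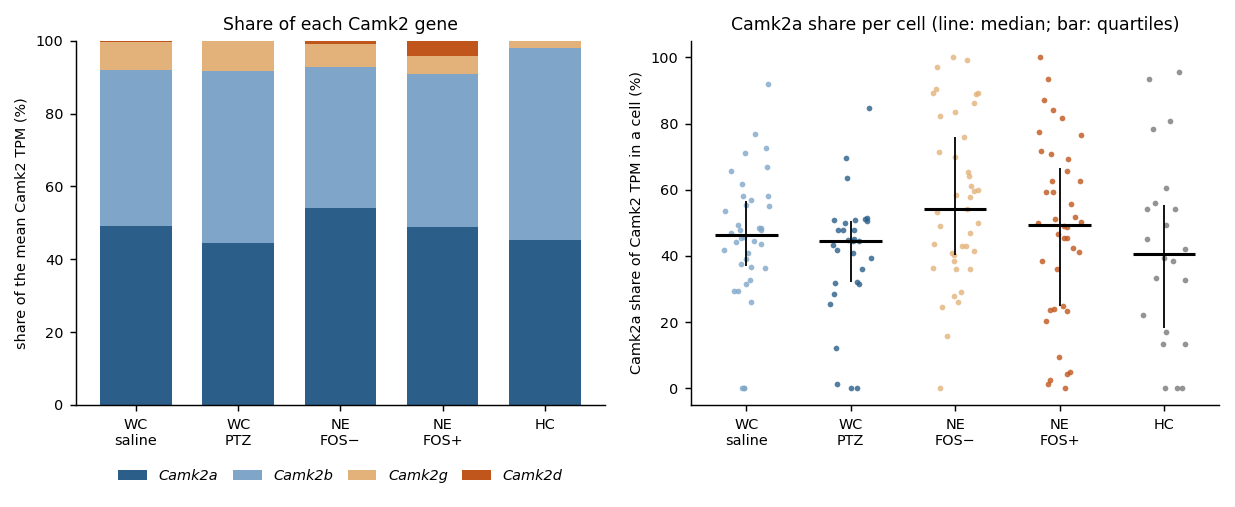
Left, share (%) of each CaMKII gene in the mean summed Camk2 TPM of each group; right, the *Camk2a* share (%) in each cell with any Camk2 TPM, with the median as a horizontal line and the quartiles as a vertical bar. *Camk2a* and *Camk2b* together make up nearly all of each bar, and the per-cell *Camk2a* share spreads from 0 to 100% in FOS− and FOS+ nuclei.

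Of the kinase kinases, *Camkk1* had the higher mean TPM in each group, although in HC nuclei the gap was small, at 54.3 against 43.9 TPM. The *Camkk1* lowest, median and highest TPM was 0, 241 and 864 in saline cells, 0, 113 and 414 in PTZ cells, 0, 31.7 and 766 in FOS− nuclei, 0, 99.5 and 2051 in FOS+ nuclei and 0, 5.50 and 515 in HC nuclei. It was detected in 84.2%, 76.7%, 63.4%, 72.5% and 52.2% of these groups, in the same order. *Camkk2* reached a highest TPM of 107 in saline cells, 93.0 in PTZ cells, 80.7 in FOS− nuclei, 25 in FOS+ nuclei and 286 in HC nuclei, and its median was 23.9, 0.14, 0, 0 and 0. It was detected in 60.5% of saline cells (43.4 to 76.0), 43.3% of PTZ cells (25.5 to 62.6), 36.6% of FOS− nuclei (22.1 to 53.1), 15% of FOS+ nuclei (5.71 to 29.8) and 26.1% of HC nuclei (10.2 to 48.4). In the 6 HC nuclei that had *Camkk2* its TPM lay between 41.1 and 286, and in the 6 FOS+ nuclei that had it between 1.95 and 25. HC nuclei also had fewer detected genes, with a median of 3213 against 6325.5 in FOS+ nuclei. How common such a gap is among all genes was not computed. The HC and NE tables differ in platform, mouse and read length, which cannot be told apart here. Counting both genes, a kinase kinase was missing in 5 of 38 saline and 6 of 30 PTZ cells, in 9 of 41 FOS− and 10 of 40 FOS+ nuclei and in 8 of 23 HC nuclei.

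Promoter sequences are shown for the 2 kinase kinases and for *Camk1*, since the account of the cascade in the comparisons that follow turns on these 3 genes. RefSeq starts (GRCm38.p6) were found for 7 of the 10 genes, in 8 windows of 250 bases before to 50 bases after the start. Capitals mark TGACG, the half-site of the cAMP response element bound by CREB, and CCAAT, a common promoter element, on either strand, where CCAAT on the opposite strand reads ATTGG.
*Camkk2* (chr5:122779361-122779660, minus strand): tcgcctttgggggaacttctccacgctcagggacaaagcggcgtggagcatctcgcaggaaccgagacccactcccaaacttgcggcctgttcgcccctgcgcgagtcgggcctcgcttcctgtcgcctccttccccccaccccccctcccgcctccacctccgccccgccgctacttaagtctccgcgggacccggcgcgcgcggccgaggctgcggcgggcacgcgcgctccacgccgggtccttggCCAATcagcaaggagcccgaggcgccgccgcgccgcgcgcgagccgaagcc
*Camkk1* (chr11:73018738-73019037, plus strand): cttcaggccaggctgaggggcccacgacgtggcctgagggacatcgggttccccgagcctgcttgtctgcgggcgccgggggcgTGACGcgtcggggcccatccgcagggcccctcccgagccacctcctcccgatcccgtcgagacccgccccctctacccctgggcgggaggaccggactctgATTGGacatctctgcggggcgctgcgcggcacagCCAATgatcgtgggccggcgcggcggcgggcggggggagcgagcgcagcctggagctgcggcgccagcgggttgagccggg
*Camk1* (chr6:113343873-113344172, minus strand): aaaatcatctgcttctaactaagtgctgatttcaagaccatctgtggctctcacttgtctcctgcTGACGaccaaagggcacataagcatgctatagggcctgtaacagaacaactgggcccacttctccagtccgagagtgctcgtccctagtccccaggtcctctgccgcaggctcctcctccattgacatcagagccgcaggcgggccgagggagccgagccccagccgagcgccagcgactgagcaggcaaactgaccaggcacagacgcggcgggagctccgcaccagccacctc
The half-site begins 166 bases before the start of *Camkk1* and 185 bases before that of *Camk1*, and 20.8% of all 32851 promoter windows hold at least 1. None of the 8 windows holds the full element TGACGTCA, found in 1.79% of all windows, or the AP-1 motif TGAGTCA, found in 5.2%. CCAAT occurs at 65 and 31 bases before the start of *Camkk1* and 1 base before that of *Camkk2*, against 37.4% of all windows with a match. The *Camkk1* and *Camkk2* windows are rich in CG dinucleotides, with 36 and 42 where the median window has 7. A match is only a match of letters.

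Type I kinases, which act in the cytoplasm and in growing neurites, were patchy. *Camk1* was detected in 8 of 38 saline cells (highest 155 TPM), 13 of 30 PTZ cells (highest 253 TPM), 8 of 41 FOS− nuclei (95.7 TPM), 6 of 40 FOS+ nuclei (263 TPM) and 1 of 23 HC nuclei (514 TPM). *Camk1d* was detected in 39.5% of saline and 53.3% of PTZ cells and in 29.3%, 22.5% and 21.7% of FOS−, FOS+ and HC nuclei, and its highest TPM was 186, 256, 408, 592 and 94.9. *Camk1g* had counts in 2 PTZ cells only, with 95.8 and 314 TPM. Its count of 0 allows a share of up to 7.89% in saline cells, 7.32% in FOS−, 7.50% in FOS+ and 13% in HC nuclei by 3 cells of the total, and 9.25%, 8.60%, 8.81% and 14.8% by the exact interval.

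*Camk4*, the nuclear kinase of the cascade, was low in TPM yet widespread in HC nuclei. It was detected in 22 of 23 HC nuclei (95.7%, interval 78.1 to 99.9), at 1.17 to 13.9 TPM, the remaining nucleus had 0.51 TPM, and the median of all 23 was 5.32. Detection was 56.1% in FOS− (39.8 to 71.5) and 45% in FOS+ nuclei (29.3 to 61.5), with medians of 1.55 and 0.73 TPM, and 15.8% in saline (6.02 to 31.2) and 36.7% in PTZ cells (19.9 to 56.1). After thinning to 50000 counts, any count left was found in 82.6% of HC, 48.8% of FOS−, 32.5% of FOS+, 21.1% of saline and 36.7% of PTZ samples. HC stayed highest and saline lowest, while PTZ and FOS+ changed places. The thinned shares differ from the others in this limit of detection as well as in depth. The mean TPM of *Camk4* did not follow this order, at 5.75 in HC, 7.49 in FOS−, 5.25 in FOS+, 3.59 in saline and 5.77 in PTZ samples. A further limit is that 95.3% of its 127 counts above 0 were not whole numbers (by more than 0.005), against 52.1% over all genes, although 0.710% of its 50-base stretches were shared with another gene. *Camk2a* (84.7%), *Camk2b* (74.0%) and *Camk2d* (58.6%) also lay above the share over all genes, and the remaining members lay below it. RSEM gives such values where it divides reads between genes. How far this touches the levels of *Camk4*, or the levels and shares of the CaMKII genes, was not tested.

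**Figure D3:**
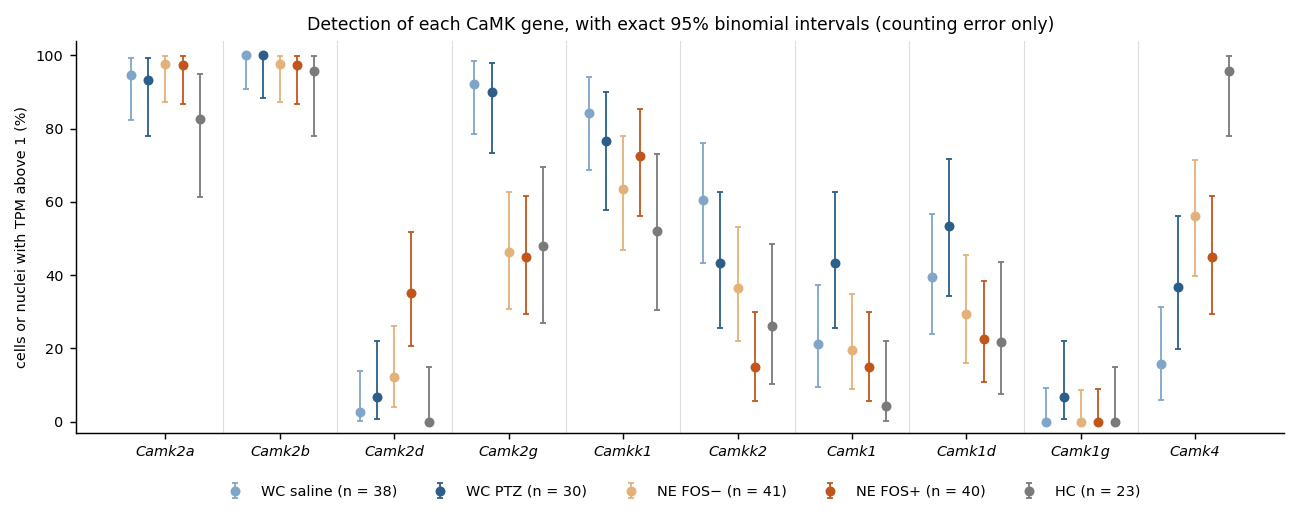
Share (%) of cells or nuclei in which each CaMK gene had TPM above 1, for the 5 groups, with exact 95% binomial intervals that cover counting error only. *Camk2b* is above 95% everywhere, *Camk2g* is at 92.1% in saline cells and 45% in FOS+ nuclei, *Camk4* peaks at 95.7% in HC nuclei and *Camk2d* at 35% in FOS+ nuclei.

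A kept cell expressed a median of 5 members in the saline, FOS− and FOS+ groups, 6 in the PTZ group and 4 in the HC group, and no cell had none. *Camk2a* and *Camk2b* were found together in 94.7% of saline, 93.3% of PTZ, 95.1% of FOS−, 95% of FOS+ and 82.6% of HC samples. A kinase kinase together with any of *Camk1*, *Camk1d*, *Camk1g* or *Camk4* was detected in 60.5% of saline, 66.7% of PTZ, 58.5% of FOS−, 47.5% of FOS+ and 60.9% of HC samples. Ordered by mean log2(TPM + 1), neighbouring members differed by more than 1 SD of their difference over cells in 2 of 9 steps in saline cells, from *Camk2a* to *Camkk1* and from *Camk2g* to *Camkk2*, and in 0 of 9 steps in each of the other groups.

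Detection in NE nuclei also moved with the amplification. At 10 µM TSO *Camkk1* was detected in 35 of 43 nuclei (81.4%, 66.6 to 91.6) and at 1 µM in 20 of 38 (52.6%, 35.8 to 69). *Camkk2* was detected in 17 of 43 and 4 of 38 nuclei, and *Camk2g* in 27 of 43 and 10 of 38. For the dilution of the spike-ins the shares lay closer together, at 70.7% and 65.0% for *Camkk1* and 29.3% and 22.5% for *Camkk2* at 1:200 and 1:2000. Both sort groups were spread over the 4 conditions with 8 to 11 nuclei each.

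FOS+ and FOS− nuclei came from the same animal and differ by the FOS stain, which marks recent activity. The study left out FOS+ nuclei that clustered with FOS− nuclei by expression before it compared the sorts, which was not done here. For each gene the counts of a group were summed and divided by the group's total and scaled as counts per 1000000 (CPM). A member was called when this differed 2-fold, and the call was repeated with any 1 nucleus left out and within the amplification conditions. Of the 9 members with a count in at least 5 nuclei, 3 were at least 2-fold higher in FOS+ (*Camk2d*, *Camk1* and *Camkk1*), where 17.8% of all 16411 genes were, and 1 was at least 2-fold lower (*Camkk2*), where 28.2% of all genes were. *Camk1g* had no count. Once the call had to hold without any 1 nucleus, 0 members were higher (8.71% of all genes) and 1 was lower (14.6%). Among the 4 members detected in at least 50% of the nuclei 1 was 2-fold higher (10.6% of such genes) and 0 were lower (15.5%). The median log2 ratio of the 9 members was 0.16, against -0.20 for all genes. TMM scaling moved the median of all genes from -0.20 to 0.04 and the calls over all genes from 2924 higher and 4630 lower to 3679 and 3828, so ratios near 0 have no settled direction.

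*Camkk2*, the kinase kinase that also acts on AMPK, had the widest ratio of the 9. Its summed counts were 57 in FOS+ and 614 in FOS− nuclei, or 3.94 CPM (counting interval 2.99 to 5.11) and 44 CPM (40.6 to 47.6), an 11.2-fold lower value with a log2 ratio of -3.48. The ratio lay between -4.15 and -3.04 when any single nucleus was left out, where 14.6% of all genes stayed 2-fold lower. It was also below 0 in all 4 conditions, and 5.78% of all genes were 2-fold lower with this direction in all 4. The share of genes that pass both was not computed. The counts were 13 and 32 at 10 µM TSO and 1:200, 23 and 288 at 10 µM and 1:2000, 20 and 22 at 1 µM and 1:200, and 1 and 272 at 1 µM and 1:2000, for FOS+ and FOS− in turn. Most of the difference thus came from the 2 conditions at 1:2000. Detection was 21.6 percentage points lower in FOS+ nuclei, beyond the 20 points that 3.69% of all genes passed in this direction. After thinning to 50000 counts, 12.5% of FOS+ and 31.7% of FOS− nuclei had any count left. With equal weight per nucleus the log2 ratio was -2.49 and from mean TPM -2.47. A single FOS− nucleus held 30.1% of that group's counts. *Camkk2* lay at the 4.75th percentile of the log2 ratios of all genes.

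*Camkk1* pointed the other way, but not in every condition. Its CPM was 420 in FOS+ and 206 in FOS− nuclei, a log2 ratio of 1.03 that ranged from 0.76 to 1.47 with 1 nucleus left out. At 1 µM TSO it was higher in FOS+ nuclei, with 977 against 16 CPM at 1:200 and 257 against 99.5 CPM at 1:2000. At 10 µM it was slightly lower, with 263 against 342 CPM and 334 against 397 CPM. From mean TPM the log2 ratio was 0.72. *Camkk1* without *Camkk2* was found in 60.0% of FOS+ (43.3 to 75.1) and 41.5% of FOS− nuclei (26.3 to 57.9), and *Camkk2* without *Camkk1* in 2.5% (0.0633 to 13.2) and 14.6% (5.57 to 29.2).

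The *Camk2d* log2 ratio of 2.02 rested on few nuclei. A single FOS− nucleus held 96.3% of that group's 216 counts and a single FOS+ nucleus 54.4% of 904, and the ratio ran from 0.91 to 6.66 with 1 nucleus left out. The difference in detection, 22.8 percentage points higher in FOS+ nuclei (4.3% of all genes passed 20 points in this direction), counts each nucleus once. The detected nuclei had a median count of 2.93 in FOS+ and 1 in FOS−, and a count of at least 5 was reached by 6 FOS+ nuclei and 1 FOS− nucleus. In 3 of 4 conditions the FOS− nuclei had only 1 to 3 counts in all, against 19, 56 and 808 in FOS+ nuclei, and in the other condition they had 210 against 21.

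*Camk1* had a log2 ratio of 1.69 in summed counts, from 0.82 to 2.34 with 1 nucleus left out, whereas its detection was 15% in FOS+ and 19.5% in FOS− nuclei, and its direction was split 2 against 2 over the conditions. *Camk2b* was 1.51-fold higher in FOS+ nuclei, at 1236 against 818 CPM, with a log2 ratio of 0.60 and 0.42 to 0.69 without any 1 nucleus. It was higher in 3 conditions and lower at 10 µM TSO and 1:200, where it stood at 947 against 1832 CPM, and equal weight per nucleus gave 0.18. *Camk2a* stood at 1399 against 1684 CPM, a log2 ratio of -0.27 and close to the median of all genes. For *Camk2g* (0.16), *Camk4* (-0.42) and *Camk1d* (-0.49) the ratios were under 2-fold. With 1 nucleus left out, that of *Camk1d* ran from -2.33 to 0.55 and that of *Camk2g* from -0.62 to 0.39, so neither has a settled direction. That of *Camk4* stayed between -0.82 and -0.05. The directions of *Camk4* and *Camk2a* were nevertheless split 2 against 2 over the conditions.

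Markers of other cells also differed between the sorts. Without any single nucleus, *Fibcd1* (pyramidal, 35.8 against 4.80 CPM) and *Gfap* (astrocyte, 57.4 against 0.430 CPM) stayed 2-fold higher in FOS+ nuclei. So did *Mobp* (oligodendrocyte, 19.2 against 2.79 CPM) and *Csf1r* (microglia, 30.8 against 2.08 CPM). *Dcx*, a marker of immature neurons, stayed lower at 6.85 against 70.8 CPM. In FOS+ nuclei 1 nucleus held 84.6% of the *Gfap*, 71% of the *Csf1r* and 50.7% of the *Mobp* counts. *Gfap* was detected in 7.5% and *Csf1r* in 10% of FOS+ nuclei. *Mobp* was higher in 2 conditions and lower in 2. For *Dcx* 1 nucleus held 69.3% of the FOS− counts. In its list *Igfbpl1* and *Tubb3* were also lower, and *Sox11* was higher at 269 against 172 CPM. By list, the summed TPM in FOS+ and FOS− nuclei had a median of 17.4 (0 to 219) and 18.3 (0 to 309) for the 6 pyramidal markers, 9.56 (0 to 584) and 8.05 (0 to 413) for the 5 astrocyte markers, 36 (0 to 945) and 24.8 (0 to 351) for the 5 oligodendrocyte markers, 26.3 (0 to 1364) and 5.21 (0 to 5822) for the 7 interneuron markers, 4.25 (0 to 3436) and 4.88 (0 to 51.8) for the 5 microglia markers and 7.86 (0 to 422) and 6.15 (0 to 1846) for the 4 immature neuron markers. The interneuron list had the widest gap of medians, and its genes went both ways. *Gad1* (277 against 144 CPM) and *Gad2* (10.0 against 2.51 CPM) encode the enzymes that make GABA. They were higher in FOS+ nuclei in all 4 conditions, without staying 2-fold when any 1 nucleus was left out. *Lhx6* was also higher, at 1.38 against 0.931 CPM. *Sst* was lower, at 6.85 against 11.7 CPM. *Vip* was lower at 0.553 against 77.9 CPM, with 99.7% of its FOS− counts in 1 nucleus. In whole cells *Gad1* was detected in 86.8% of saline and 70% of PTZ cells. *Ociad2* of the pyramidal list was lower in FOS+ nuclei, at 17.8 against 43.3 CPM. *C1qa* and *Ctss* of the microglia, *Aldh1l1* of the astrocytes and *Pvalb* of the interneurons were at 0 in both. Their part in the member differences was not tested.

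**Figure D4:**
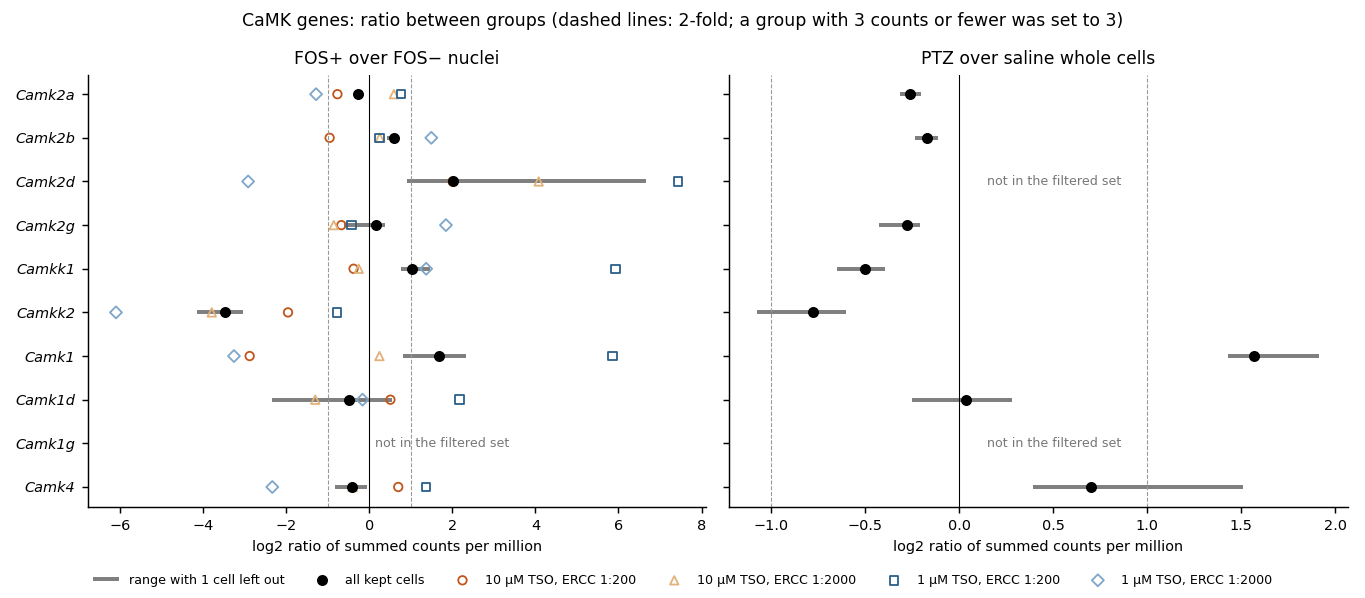
log2 ratio of summed CPM of each CaMK gene in FOS+ over FOS− nuclei (left) and PTZ over saline whole cells (right); black points use all kept cells, grey bars give the range when any 1 cell is left out, open symbols give the 4 amplification conditions and dashed lines mark 2-fold. *Camkk2* is the single gene on the left whose bar and 4 symbols all lie below 0 with the bar past 2-fold, and *Camk1* is the single gene on the right whose bar stays past 2-fold.

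PTZ and saline whole cells were compared to ask what the seizure stimulus adds in dissociated cells. Of the 8 members with a count in at least 5 cells, 1 was at least 2-fold higher in PTZ cells (*Camk1*; 13.2% of all 14492 genes were) and 0 were lower (14% of all genes). Without any 1 cell the counts were 1 and 0, where 6.65% and 6.93% of all genes were called. Among the 5 members detected in at least 50% of the cells 0 were higher (2.46% of such genes) and 0 lower (3.29%), and by 20 points of detection 2 were higher (*Camk1* and *Camk4*; 3.12% of all genes) and 0 lower (4.35%). The abundant members were close. *Camk2a* stood at 1696 against 2033 CPM (log2 ratio -0.26, range -0.32 to -0.21 with 1 cell left out), *Camk2b* at 1433 against 1616 CPM (-0.17, -0.23 to -0.11) and *Camk2g* at 291 against 353 CPM (-0.28, -0.42 to -0.21). Without the 4 PTZ cells with over 10000 genes these ratios were -0.36, -0.19 and -0.23. The median log2 ratio of the 8 members was -0.22 and that of all genes -0.04.

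*Camk1* was 2.97-fold higher in PTZ cells, at 49.3 CPM (47.2 to 51.5) against 16.6 CPM (15.4 to 17.9). The log2 ratio of 1.57 ran from 1.43 to 1.92 with any 1 cell left out and stayed at 1.60 without the 4 PTZ cells with over 10000 genes. Detection was 43.3% (25.5 to 62.6) against 21.1% (9.55 to 37.3), a gap of 22.3 points, and 34.6% against 21.1%, a gap of 13.6 points, without those 4 cells. The TPM of the cells that had *Camk1* overlapped, with a median of 94.4 in 13 PTZ and 122 in 8 saline cells. *Ogg1* on the opposite strand stood at 8.30 CPM in PTZ and 0.794 CPM in saline cells, and its part in the *Camk1* value was not tested.

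*Camkk2* and *Camkk1* were lower in PTZ cells without reaching 2-fold, at 47.5 against 81.4 CPM (log2 ratio -0.78, -1.07 to -0.60 with 1 cell left out) and 379 against 536 CPM (-0.50, -0.65 to -0.40). Without the 4 PTZ cells with over 10000 genes the log2 ratios were -0.88 for *Camkk2* and -0.92 for *Camkk1*. *Camkk2* was detected in 17.2 points fewer PTZ cells, and in 25.9 points fewer without those 4 cells. *Camk4* was higher by a log2 ratio of 0.70 and by 20.9 points of detection, which became 0.15 and 11.1 points without those 4 cells. *Camk1d* stood at 64.4 against 62.8 CPM, a log2 ratio of 0.04 with and -0.0051 without them. *Camk1g* had 582 counts in PTZ cells, 98.5% of them in 1 cell, and 0 in saline cells, and *Camk2d* had 7 and 301 counts, the latter all in 1 saline cell, so no fold is given for either.

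Markers of other cells differed as well. Of the 6 pyramidal neuron markers *Fibcd1* stayed 2-fold higher in PTZ cells without any single cell, at 42.8 against 13.4 CPM, and the summed TPM of the list had a median of 50.8 (0 to 1675) in PTZ and 4.08 (0 to 277) in saline cells, with *Mpped1* at 0 in both. Among the 4 immature neuron markers *Igfbpl1* stood at 71.1 against 23.1 CPM, and the summed median was 65.1 (0 to 2335) and 37.2 TPM (0 to 4467). The 8 immediate early genes, which mark activity, summed to a median of 227 TPM (2.00 to 28822) in PTZ and 1589 TPM (0.38 to 28267) in saline cells. By summed CPM these genes were close, with a median log2 ratio of -0.09 and a range from -1.22 for *Homer1* to 0.60 for *Atf3*. *Fos* stood at 2997 against 2677 CPM. Of the 8, 0 were 2-fold higher and 1 was lower, where 13.2% and 14% of all genes were. The part of these markers and genes in the differences above was not tested.

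The surrounding calmodulin pathway was described with lists of genes by role. *Calm2*, which encodes calmodulin itself, stayed under 2-fold, at 670 against 620 CPM in FOS+ and FOS− nuclei and at 2680 against 2751 CPM in PTZ and saline cells. Of the buffers that hold calmodulin, *Nrgn* and *Pcp4* stayed under 2-fold in both comparisons, with log2 ratios of -0.23 and -0.39 in nuclei and -0.23 and 0.14 in whole cells. The CaMKII inhibitor *Camk2n1* was lower in FOS+ nuclei in all 4 conditions without reaching 2-fold, at 230 against 402 CPM, and its relative *Camk2n2* stood at 6.23 against 1.72 CPM.

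Of the 8 CaMKII anchors and synaptic partners 0 were 2-fold higher and 2 were 2-fold lower in FOS+ nuclei, where 17.8% and 28.2% of all genes were. *Lrrc7*, which encodes the scaffold densin-180, held without any single nucleus and in all 4 conditions, at 103 against 397 CPM. The NMDA receptor genes *Grin2a* and *Grin2b* stood at 763 against 456 CPM and 1414 against 1641 CPM. For calcineurin, the calmodulin-dependent phosphatase that opposes these kinases, 0 of 7 genes were 2-fold higher and 2 lower in FOS+ nuclei (17.8% and 28.2% of all genes), with *Ppp3cc* at 3.60 against 15.7 CPM holding without any single nucleus. The catalytic subunit *Ppp3ca*, the most abundant of the list, stood at 803 against 1422 CPM, under 2-fold. In PTZ cells *Ppp3cc* was higher, at 11.2 against 3.30 CPM, and so was the calcineurin regulator *Rcan3*, at 75.5 against 8.43 CPM, both without any single cell.

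The list of other calmodulin-dependent and CaMK-like kinases held genes with ratios on both sides. *Dclk1*, a doublecortin-like kinase, was 8.27-fold higher in FOS+ nuclei, at 4301 against 520 CPM, in all 4 conditions and with a log2 ratio between 2.98 and 3.15 without any single nucleus. In PTZ and saline cells it stood at 509 and 545 CPM. *Pnck* and *Dapk1*, a CaMKI-type kinase and a death-associated kinase, were 3.69-fold and 3.74-fold lower in FOS+ nuclei in all 4 conditions, and *Phkg1*, a subunit of phosphorylase kinase, stood at 9.27 against 0.573 CPM, with 81.3% of the FOS+ counts in 1 nucleus and a log2 ratio of 1.65 to 4.19 with 1 nucleus left out. In all, 2 of these 8 genes were 2-fold higher and 4 lower in FOS+ nuclei, where 17.8% and 28.2% of all genes were. Among 5 phosphatases that act on CaMK, *Ppp1cb* was higher in all conditions (142 against 50.6 CPM), and *Ppp1ca* (9.96 against 58 CPM) and *Ppm1f* (20.8 against 157 CPM) were lower without any single nucleus. For *Ppm1f* 1 nucleus held 99.3% of the FOS+ and 1 held 72.5% of the FOS− counts, the log2 ratio ran from -9.53 to -1.17 with 1 nucleus left out, and it was 5.56 at 10 µM TSO and 1:200. Of the 10 targets of the cascade 9 could be compared, and the transcription factor *Mef2a* stood at 133 against 154 CPM and the histone deacetylase *Hdac5* at 61.1 against 32.3 CPM. *Hdac9*, a class II histone deacetylase, was the single target that stayed 2-fold higher without any 1 nucleus, at 7.75 against 0.788 CPM, and was detected in 7.50% and 7.32% of nuclei.

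**Figure D5:**
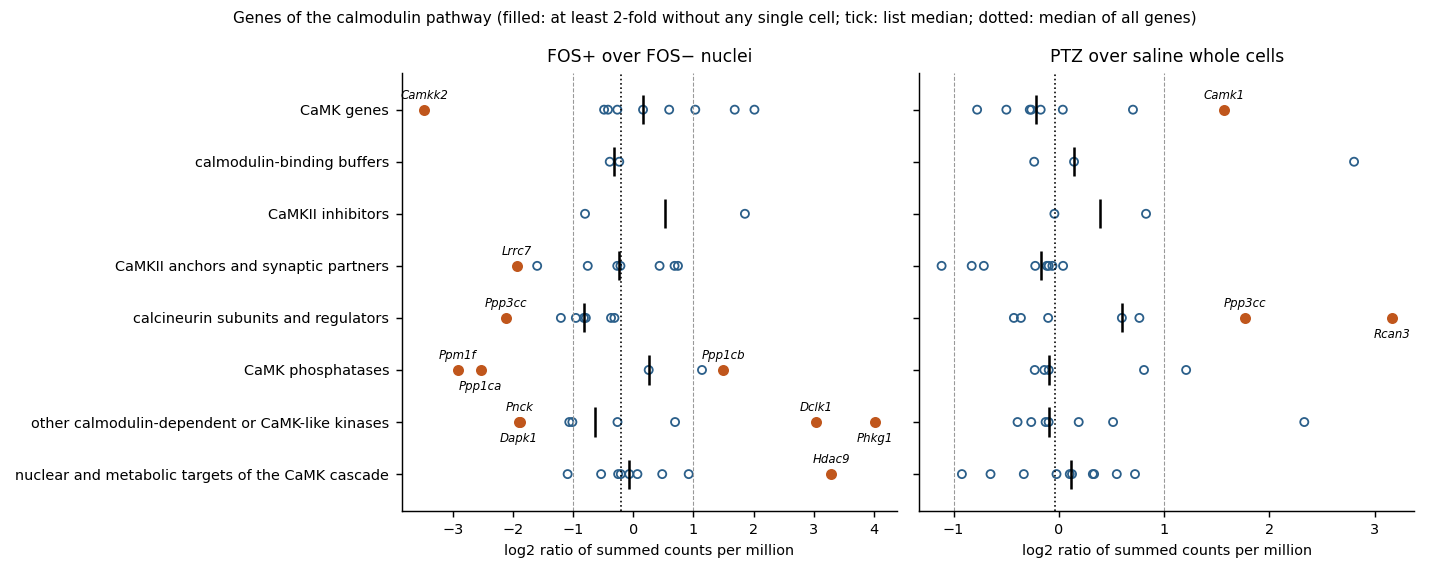
log2 ratio of summed CPM for the CaMK genes and 7 lists of calmodulin pathway genes in FOS+ over FOS− nuclei (left) and PTZ over saline whole cells (right); filled points are at least 2-fold without any single cell, ticks are list medians and the dotted line is the median of all genes. On the left *Camkk2* at -3.48, *Hdac9* at 3.30 and *Phkg1* at 4.02 are the filled points farthest out, and on the right *Rcan3* is, at 3.16.

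Across 68 kept whole cells, 4 members were detected in at least 80% and could be compared in pattern with 1890 other such genes, by the Spearman correlation of log2(TPM + 1). *Camkk1* was most like *Gabarapl1* (0.71), the calcineurin subunit *Ppp3r1* (0.70) and *Calm3* (0.69). *Camk2b* was most like *Ncdn* (0.60), *Pkm* (0.59) and *Bin1* (0.57), *Camk2g* like *Ncdn* (0.62), *Gas7* (0.58) and *Ppp3ca* (0.55), and *Camk2a* like *Pitpnm2* (0.60), *Slc7a14* (0.59) and *Abr* (0.58). Among the members themselves *Camk2b* and *Camkk1* had the highest value, 0.48, and *Camk2a* and *Camk2b* had 0.35. The cells fall into 2 treatments and differ in the number of genes detected, which correlated at 0.43 with *Camkk1* and at 0.45 with *Camk2b*. In 81 NE nuclei, over 1692 genes, the values were lower. *Camk2a* was most like *Adcy1* (0.40), *Nptx1* (0.40) and *D030018L15Rik* (0.39), *Camk2b* like *Grin2a* (0.42), *Nckap1* (0.40) and *Pisd-ps2* (0.35), and *Camk2a* and *Camk2b* had -0.01 between them.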

How the data were processed

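The authors trimmed the reads with Solexa-QA++, aligned them to mm10/GRCm38 transcripts with Bowtie 1.0.0 through RSEM, and deposited an expected count and a TPM value per gene and cell (TPM is scaled by transcript length). The Ensembl version is not given in the sources used here. The deposited tables keep no spike-in rows.

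Whole cells and new environment (NE) nuclei were kept when their total expected count exceeded 50000 and their number of genes with TPM above 1 exceeded the mean minus 2 SD of the table, and all 23 home cage nuclei were kept. This left 38 of 47 saline and 30 of 35 PTZ cells, 41 of 48 FOS− and 40 of 48 FOS+ nuclei. The study also required spike-in levels to follow their known concentrations, which could not be applied here, so the kept sets are not the study's. Expected counts were summed over the cells of a group and divided by the group's total, with exact Poisson intervals, and shares of cells have exact Clopper-Pearson 95% intervals. Both cover counting error only, since amplified reads carry no molecular barcode and are not independent. Ratios were computed on expected counts rounded to whole numbers, for all genes with a count in at least 5 kept cells of both groups together, and a group with 3 counts or fewer was set to 3. Thinning drew 50000 counts per cell, and a gene was then called detected by any count left, without the limit on TPM. The study's methods used edgeR over cells. No test was run here, because cells are not replicates and the labels name no animal, and edgeR 4.0.16 in R 4.3.3 gave only TMM factors. The scripts ran in Python 3.11.15 with numpy 2.4.6, pandas 2.3.3, scipy 1.17.1 and matplotlib 3.10.9 and were tested on simulated data.

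All 10 members were named, and from each pathway list the genes that stayed 2-fold without any single cell and otherwise at most the 2 with the highest mean TPM. The marker genes, *Ogg1* and the values of a gene in its second comparison were added after the values were seen. The members and lists were chosen with earlier results of these data known. The alternatives were other scalings, weights, filters and leaving out single cells, and leaving out the 4 PTZ cells with over 10000 genes was chosen after seeing the data. Some genes of the lists are not reported here.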

Additional observations from a re-analysis of the deposited data

How the results depend on the processing

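The median log2 ratio of the 9 members in FOS+ over FOS− nuclei was 0.16 and moved to -0.039 with equal weight per cell, -0.054 with equal weight per amplification condition, 0.41 with TMM scaling and 0.35 with median-of-ratios scaling, and lay between -0.24 and 0.55 with single nuclei left out. The count of members at least 2-fold higher, 3, was 1 from mean TPM, 1 among genes detected in at least 50% of the nuclei, where fewer members could be tested, and 1 to 3 with single nuclei left out. The count of members at least 2-fold lower, 1, was 0 among genes detected in at least 50% of the nuclei, since *Camkk2* is not among them, and 1 to 2 with single nuclei left out. For PTZ over saline cells the median of -0.22 moved to -0.11 with equal weight per cell, -0.24 from mean TPM, -0.17 with TMM, -0.19 with median-of-ratios scaling and -0.28 among genes detected in at least 50% of the cells, and lay between -0.27 and -0.16 with single cells left out. The count of members at least 2-fold higher, 1, was 2 with no filter on genes, 0 among genes detected in at least 50% of the cells and 1 to 2 with single cells left out, and the count lower, 0, was 1 with no filter and 0 to 1 with single cells left out. No member past 2-fold changed sign. Under 2-fold, *Camk2g* in FOS+ nuclei turned from 0.16 to -0.28 with equal weight per cell, -0.24 from mean TPM and -0.16 with equal weight per amplification condition, and *Camk1d* from -0.49 to 0.24 from mean TPM. Over all genes, TMM turned 2924 higher and 4630 lower calls in FOS+ nuclei into 3679 and 3828. No paired analysis was possible because the labels pair no cells between groups and no test was made. The number of cells limits the rare members, since 0 cells with a gene allow a share of up to 7.89% in saline, 10.0% in PTZ, 7.32% in FOS−, 7.50% in FOS+ and 13% in HC samples by 3 cells of the total.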
